A study of Mus musculus with 6 samples.

Results

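Alveolar type I cells are the thin, flat cells that cover most of the gas-exchange surface of the lung, and 10 genes used to recognise them were followed here in sorted, type II-derived cells after bacterial lung injury. The genes were Ager, Hopx, Pdpn, Aqp5, Akap5, Clic5, Rtkn2, Emp2, Gprc5a and Igfbp2, taken by symbol from a fixed list that leaves out the caveolae genes, and all 10 were found among the 23337 gene symbols counted. After injury type II cells, which make surfactant, divide, and some of their descendants flatten and take on type I genes. The study's title places Dlk1, a transmembrane relative of the Notch ligands of the Delta family, in the timing of that step.

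The mutant mice carried SpC-CreER/Dlk1flox/ROSA-Tomato and the wild-type mice SpC-CreER/ROSA-Tomato, so both groups had the tamoxifen-inducible Cre driven by the surfactant protein C promoter and the Tomato reporter, and they differed by the floxed Dlk1. Mice of both groups had acute lung injury from Pseudomonas aeruginosa, and the labels place sampling at 10 days after it, with Tomato-positive cells sorted by flow cytometry. A culture of 8 days is also named in the extract protocol, and whether these cells were cultured before RNA isolation is unclear from the labels. Each group had 3 libraries of polyadenylated RNA with 22511461 to 30695994 counts. Whether each library is a separate animal is not stated in the labels, and the p-values cover only the spread among these samples, which may be technical. Nor do the labels give age, tamoxifen timing or pooling of animals.

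The deleted gene could not check the labels, since the mutant libraries gave 2, 0 and 0 counts of Dlk1 and the wild-type libraries 2, 0 and 2 counts (here and below in the order of sample numbers 1, 2 and 3). All 6 libraries were rich in type II transcripts, with the surfactant gene Sftpc at 45220 to 54190 CPM (counts per 1000000 of the library total). Mutant 1 stood apart by genes of other cells. Its summed level of 6 club cell markers was 8873 CPM against 486 to 794 CPM in the other 5 libraries, of 8 fibroblast markers 217 against 3.37 to 7.14 CPM, of 10 endothelial markers 107 against 14.97 to 22.8 CPM and of 10 leukocyte markers 488 against 6.43 to 33.01 CPM. Its ciliated (203.8 against 61.98 to 79.3 CPM) and mesothelial sums (139 against 44.6 to 68.1 CPM) were also highest, while 4 basal cell markers summed to at most 1.92 CPM in any library. Wild type 2 stood apart by Xist, the RNA that coats the silenced X of female cells, at 184.6 CPM against 0 to 2.93 CPM elsewhere. The Y-linked gene Ddx3y was at 2.88 CPM in wild type 2 against 49.84 to 78.17 CPM elsewhere. The wild-type libraries thus differed among themselves in sex-linked RNA. In bulk RNA, fewer cells of a type and less RNA per cell cannot be told apart.

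Regulatory sequence is shown for the most abundant member and for the member with the largest difference between the groups. RefSeq sequence on GRCm38.p6 covered 8 of the 10 genes, and the windows are the 250 bases before the annotated start, 5′ to 3′ on the strand of the gene, with CpG dinucleotides in capitals. The Ager window lies at chr17:34597600-34597849 on the plus strand and the Akap5 window at chr12:76324641-76324890 on the plus strand.
Ager: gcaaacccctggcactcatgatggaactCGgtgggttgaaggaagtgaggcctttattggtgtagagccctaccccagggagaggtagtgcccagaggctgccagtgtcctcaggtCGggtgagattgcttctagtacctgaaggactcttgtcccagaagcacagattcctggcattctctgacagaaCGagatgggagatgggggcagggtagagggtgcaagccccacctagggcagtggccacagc
Akap5: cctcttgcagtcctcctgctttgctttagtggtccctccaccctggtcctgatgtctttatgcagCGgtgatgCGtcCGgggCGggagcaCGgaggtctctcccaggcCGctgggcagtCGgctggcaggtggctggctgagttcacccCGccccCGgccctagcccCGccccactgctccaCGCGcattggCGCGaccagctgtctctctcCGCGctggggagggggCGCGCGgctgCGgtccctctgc
The Ager window held 3 CpG dinucleotides and the Akap5 window 20, where the median of 32851 windows of that length was 6. Among the other members the count ran from 2 in Pdpn to 38 in Aqp5, so these windows differed widely in CpG count. The letters CATTCC, the core of the TEAD motif, were found on either strand in 0 of the 10 member windows (Hopx and Igfbp2 have a pair of starts each) and in 12.6% of all windows. The NKX2-1 letters TCAAGTG were in 0 of 10 and in 2.68% of all windows. Such a search says only that these letters are absent from these windows.

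All 10 genes were detected in every library, at levels that spanned a wide range. Levels between genes are given as TMM-normalised CPM (scaled by the trimmed mean of log ratios between libraries) per kilobase of exon, with exon lengths from GENCODE on GRCm38, while the counts were made on mm9 with an annotation that no source used here names. In the wild-type libraries Ager, which encodes the receptor for advanced glycation end products and is a membrane protein of type I cells, was highest at 918 ± 60.2 CPM per kilobase (SD, n = 3). Gprc5a, an orphan G protein-coupled receptor, followed at 285.5 ± 45.3, and Aqp5, the water channel of the apical type I membrane, at 213 ± 25.0 on this scale. Emp2, a tetraspan membrane protein, stood at 73.9 ± 3.66, Clic5, a chloride intracellular channel protein tied to the actin cortex, at 23.9 ± 3.51, and Hopx, a homeodomain-only cofactor that does not bind DNA itself, at 17.95 ± 3.09.

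The remaining 4 genes were low per kilobase. Pdpn, the mucin-type membrane protein also called T1α, stood at 7.28 ± 0.58 in the wild-type libraries, and Akap5, an anchor for protein kinase A, at 3.08 ± 0.78. Rtkn2 stood at 1.46 ± 0.08 and Igfbp2, a secreted binding protein of insulin-like growth factors, at 1.19 ± 0.88. In this order the wild-type ranges of neighbouring genes overlapped between Clic5 and Hopx and between Rtkn2 and Igfbp2, and not between the other neighbours. Sftpc, measured the same way, was 55.3-fold above Ager in the wild-type and 47.3-fold above it in the mutant libraries.

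**Figure D1:**
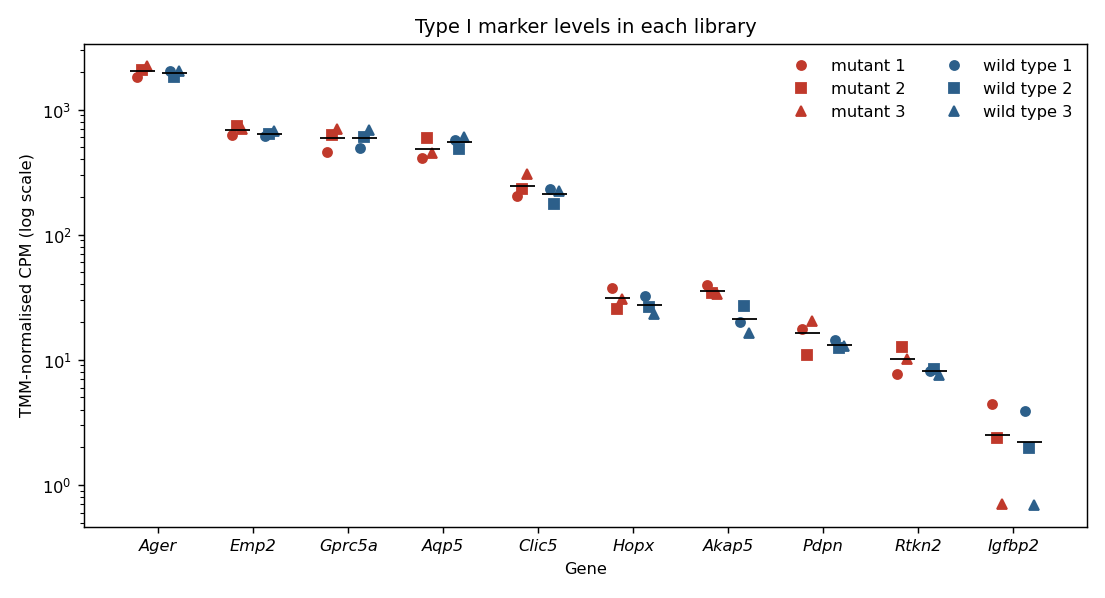
TMM-normalised CPM (log axis) of each type I marker in the 3 mutant (red) and 3 wild-type (blue) libraries, with symbols for the sample number and black lines for group means. The genes run from Ager at 1816 to 2233 CPM down to Igfbp2 at 0.69 to 4.39 CPM, and the groups are apart only for Akap5.

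None of the 10 genes passed the test between mutant and wild-type cells. edgeR's quasi-likelihood test, with p adjusted over all genes and a threshold of 5%, called 0 of the 10, and also 0 of all 12899 genes tested (0% higher and 0% lower). At an unadjusted p under 0.05, 1 member was higher (Akap5) and 0 were lower, against 3.69% of all genes higher and 2.89% lower. DESeq2 called 0 members, with 0.147% of all genes called higher and 0.147% lower, and limma-voom called 0 members and 0 genes. By sign, 9 of 10 log2 fold changes (mutant minus wild type) were positive, where 51.1% of all genes were, and the median was 0.19 against 0.00 over all genes. Without mutant 1 these were 8 of 10, against 48.1%, with a median of 0.17 against -0.01. Leaving out a single library moved the median between 0.10 (without mutant 3) and 0.32 (without wild type 1).

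Akap5 had the largest difference. The mutant samples gave 39.5, 34.2 and 33.5 TMM-normalised CPM, the wild-type samples 20.2, 26.7 and 16.2 CPM. Every mutant library was above every wild-type library, a separation found for 1 of the 10 members in the direction of the mutant, and in that direction for 5.23% of all genes. The group means were 35.8 ± 3.27 and 21.04 ± 5.29 CPM (SD, n = 3 each). The log2 fold change was 0.77 ± 0.18 (SE). Its 95% interval of 0.34 to 1.19 does not include 0, but its edgeR adjusted p over all genes was 0.737. Under 17 other settings the log2 fold change lay between 0.61 and 0.97 and the adjusted p between 0.0589 (DESeq2) and 0.959. Without mutant 1 it was 0.69 ± 0.19 with an edgeR adjusted p of 0.819. With the sample number as a block it was 0.79 ± 0.16 with an edgeR adjusted p of 0.563.

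Of 8627 genes with a mean of at least 10 TMM-normalised CPM, the 3 whose log2 profile over the 6 libraries lay nearest to that of Akap5 were Aebp1, Ddr1 and H2-D1. Their root mean square differences from Akap5 were 0.15, 0.18 and 0.20, where the median gene was at 0.48. The 3 were picked for this nearness, so their small differences and similar levels by library follow from the choice. A shared regulation was not tested. Aebp1 encodes a secreted, collagen-binding protein of the extracellular matrix, Ddr1 a receptor tyrosine kinase for collagen, and H2-D1 a classical MHC class I heavy chain that can share reads with its close paralogs. For Aebp1 the mutant samples gave 56.1, 47.9 and 46.3 CPM, the wild-type samples 31.1, 34.5 and 28.8 CPM. For Ddr1 these were 58.7, 47.2 and 50.6 CPM against 37.2, 39.1 and 31.4 CPM. For H2-D1 the groups overlapped, with mutant 2 at 1630 CPM below wild type 2 at 1910 CPM.

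The abundant membrane genes were close between the groups. For Ager the mutant samples gave 1816, 2058 and 2233 TMM-normalised CPM, the wild-type samples 2042, 1817 and 2038 CPM. Mutant 1 and wild type 2 shared the lowest level and mutant 3 had the highest, so the groups overlapped. The log2 fold change of 0.05 had a 95% interval of -0.22 to 0.33, which as a fold runs from 0.86 to 1.25. Leaving out a single library put it between -0.02 (without mutant 3) and 0.13 (without mutant 1).

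Emp2 was measured at 621, 741 and 705 CPM in mutant samples, compared with 610.1, 634 and 673 CPM in wild-type samples. Mutants 2 and 3 were above every wild-type library and mutant 1 was not. Its log2 fold change was 0.11 with a 95% interval of -0.13 to 0.34, the narrowest of the 10 (0.92-fold to 1.27-fold). It was 0.05 without mutant 2 and 0.18 without mutant 1.

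Aqp5 was the only member with a negative log2 fold change. It was measured at 410.4, 595 and 447 CPM in mutant samples, compared with 572, 481 and 607 CPM in wild-type samples. Mutants 1 and 3 were below every wild-type library, while mutant 2 was second only to wild type 3. The log2 fold change was -0.19 with a 95% interval of -0.57 to 0.19. It was -0.37 without mutant 2 and -0.29 without wild type 2, but -0.09 without mutant 1 and -0.12 without wild type 3.

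Clic5 was measured at 205, 231 and 304 CPM in mutant samples, compared with 231, 175 and 224 CPM in wild-type samples. Mutant 3 was the high library and wild type 2 the low one, with the others between them. The log2 fold change of 0.23 (95% interval -0.17 to 0.64) was 0.35 (-0.01 to 0.71) when mutant 1 was left out, 0.055 without mutant 3 and 0.11 without wild type 2.

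Hopx was measured at 37.7, 25.6 and 30.6 CPM in mutant samples, compared with 32.3, 26.4 and 23.01 CPM in wild-type samples, with overlapping groups. Its log2 fold change of 0.20 ± 0.18 (SE) was 0.05 ± 0.16 without mutant 1, the library with the most Hopx. It was 0.09 without wild type 3 and up to 0.34 without wild type 1. In GENCODE 27.2% of the exon bases of Hopx lie opposite the antisense gene Hopxos, and without strand in the counting the reads of both cannot be told apart.

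Pdpn was measured at 17.8, 10.9 and 20.2 CPM in mutant samples, compared with 14.4, 12.3 and 12.9 CPM in wild-type samples. The mutants took both the highest and the lowest places, so the spread was wider in that group (SD 4.86 CPM) than among the wild types (SD 1.06 CPM). Its log2 fold change was 0.30 with a 95% interval of -0.23 to 0.83, and went from 0.12 without mutant 3 to 0.52 without mutant 2. Pdpn also marks lymphatic endothelium and fibroblasts, and the lymphatic marker Lyve1 reached 6.19 CPM in mutant 1, while the rest had 0 to 0.60 CPM. Mutant 1, second highest in Pdpn, had 217 CPM summed over fibroblast markers and 18.6 CPM over lymphatic markers, and mutant 3, with the highest Pdpn, had 4.20 and 1.45 CPM. The part of such cells in the Pdpn level was not tested.

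Rtkn2 was measured at 7.71, 12.5 and 10.1 CPM in mutant samples, compared with 8.18, 8.45 and 7.61 CPM in wild-type samples. The wild types lay close together, mutants 2 and 3 were above them and mutant 1 was among them. The log2 fold change was 0.32 (95% interval -0.17 to 0.81) with all libraries and 0.48 (0.08 to 0.89) without mutant 1, where the edgeR adjusted p was 0.819. Without mutant 2, the library with the most Rtkn2, it was 0.135.

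How many members separated the groups depended on the libraries used. Without mutant 1, 5 of the 10 did, all higher in the mutants (Ager, Akap5, Clic5, Rtkn2 and Emp2). In the same comparison of 2 with 3 libraries, 11.2% of all genes were higher and 11.6% lower. The same 5 did when wild type 2 was left out as well, where 16.3% of all genes were higher and 16% lower without overlap. None of them passed the edgeR threshold in either case. The margins of Ager and Clic5 were small. On the scaling with all 6 libraries, Ager was at 2058 CPM in mutant 2 and 2042 CPM in wild type 1. Clic5 was at 231.0 CPM in mutant 2 and 231.2 CPM in wild type 1, so it parted the groups only after rescaling without mutant 1. Without mutant 2, in turn, Akap5 and Pdpn were higher and Aqp5 lower in every mutant library, against 12.8% of all genes higher and 12.3% lower. In mutant 1 Ager, Clic5, Rtkn2, Emp2, Aqp5 and Gprc5a were below their own 6-library mean, as the plot of centred levels shows. Akap5, Hopx, Pdpn and Igfbp2 were above theirs. The summed level of 15 type II markers was lowest in mutant 1, at 168000 CPM against 181100 to 214200 CPM.

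**Figure D2:**
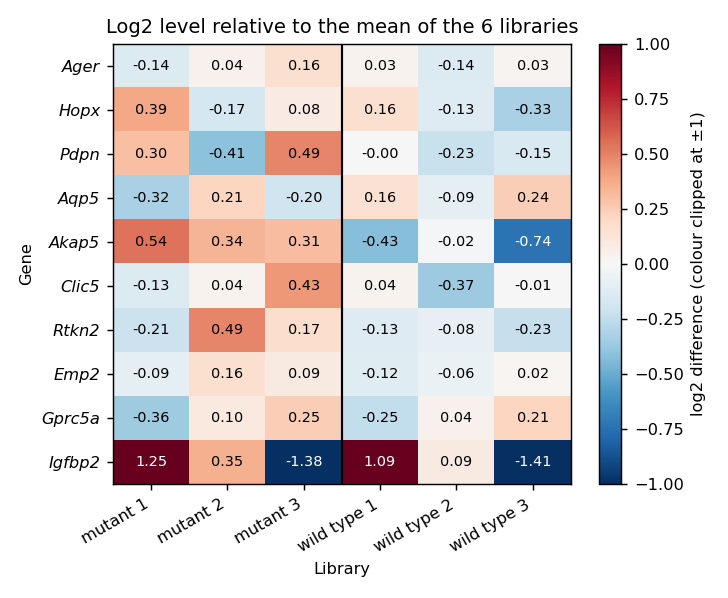
Log2 TMM-normalised level of each type I marker (rows) in each library (columns) minus its mean over the 6 libraries, with the value in each cell and colour clipped at ±1. Akap5 is positive in the 3 mutants and negative in the 3 wild types, and Igfbp2 ranges from 1.25 in mutant 1 to -1.41 in wild type 3.

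**Figure D3:**
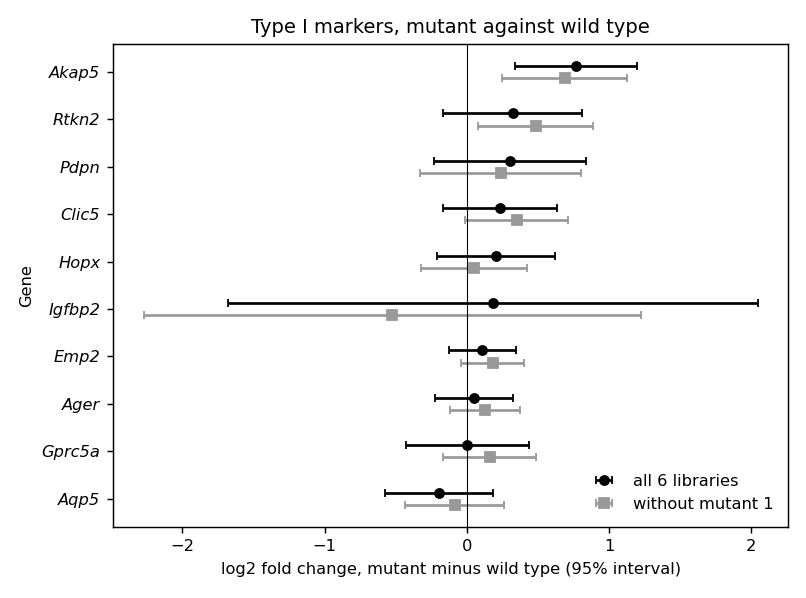
Log2 fold change, mutant minus wild type, with its 95% interval derived from the edgeR test, for all 6 libraries (black) and without mutant 1 (grey). The interval of Akap5 excludes 0 in both, that of Rtkn2 only without mutant 1, and the interval of Igfbp2, from -1.68 to 2.05, is the widest.

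Igfbp2 and Gprc5a followed the sample number rather than the genotype. For Igfbp2 the mutant samples gave 144, 55 and 20 counts, the wild-type samples 86, 49 and 17 counts, which is 4.39, 2.35 and 0.71 against 3.93, 1.96 and 0.69 TMM-normalised CPM. Both samples numbered 1 were highest, both numbered 2 in the middle and both numbered 3 lowest, a 6.34-fold range over the 6 libraries. Within a number the mutant was above the wild type by only 0.16, 0.26 and 0.03 on the log2 scale.

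Gprc5a took the opposite order. The mutant samples gave 460.0, 631 and 699 CPM, the wild-type samples 495, 607 and 683 CPM, so the samples numbered 1 were lowest and those numbered 3 highest. The mutant minus wild-type log2 fold change was 0.00 with a 95% interval of -0.43 to 0.44. With the sample number as a block in edgeR its SE went from 0.18 to 0.09, and that of Igfbp2 from 0.79 to 0.36, while neither gene passed the threshold (adjusted p = 0.991 and 0.933).

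The 3 same-numbered pairs occupied separate ranges for 2 of the 10 members and for 8.19% of all genes. Igfbp2 is used as a marker of the most mature type I cells, and its level here was below 1 CPM in the samples numbered 3. The labels do not say what a number shares, so the source of this pattern was not tested.

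**Figure D4:**
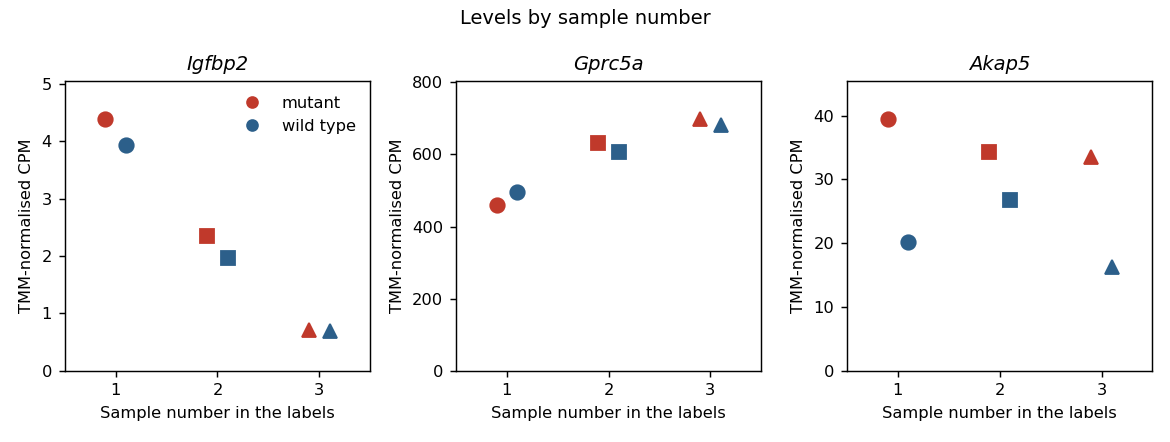
TMM-normalised CPM (linear axes from 0) of Igfbp2, Gprc5a and Akap5 against the sample number in the labels, mutant in red and wild type in blue. Same-numbered samples lie together for Igfbp2 and Gprc5a, while for Akap5 each mutant lies above the wild type of the same number.

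Taken within a number, 3 members (Akap5, Emp2 and Igfbp2) were higher in the mutant in all 3 pairs and 0 were lower in all 3, against 15.3% and 15.6% of all genes. Among the samples numbered 1, 5 of 10 members were higher in the mutant, among those numbered 2 there were 8 and among those numbered 3 there were 9, where 50.5%, 49.2% and 50.2% of all genes were. Within numbers, the share of members higher in the mutant was thus near that of all genes for number 1 and above it for numbers 2 and 3. The labels do not say that equal numbers pair samples, and what gave the signs in the unpaired fit was not tested.

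As a sum, the 10 genes gave 3868, 4279 and 4487 CPM of the library total for the mutant samples, compared with 3916, 3734 and 4222 CPM for the wild-type samples. The groups overlapped, with mutant 1 below wild types 1 and 3. Ager alone gave 47.4% to 50.7% of the sum, and together with Emp2, Gprc5a and Aqp5 91.1% to 93.4%, so the sum says little about the other 6 genes. Set against the summed level of 15 type II markers, the type I sum was 2.30%, 2.31% and 2.48% for the mutant samples, compared with 1.83%, 1.96% and 2.23% for the wild-type samples. In this ratio the groups did not overlap. Nor did they in its denominator, the type II sum alone. That sum was 168000, 185100 and 181100 CPM for the mutant samples and 214200, 190300 and 189300 CPM for the wild-type samples. How often ratios of other gene sets part the groups was not computed. Of the 15 type II markers in the denominator 14 had a negative log2 fold change (51.1% of all genes had a positive one), with 0 called and a median of -0.18, or -0.11 without mutant 1.

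A further 35 type I genes without the members and the caveolae genes were read beside them. Krt7 and Lgals3 of this list are also in the list of transitional genes below, so the lists are not separate. Of 34 tested, 28 log2 fold changes were above 0 and 6 below it, where 51.1% of all genes were above 0, and 0 were called in edgeR. At an unadjusted p under 0.05 there were 3 higher and 0 lower, against 3.69% and 2.89% of all genes. Their median was 0.15, and 0.19 without mutant 1. Lama3, the laminin α3 chain of epithelial basement membrane, gave 94.7, 94.4 and 116.9 CPM for the mutant samples, compared with 72.1, 71.8 and 84.6 CPM for the wild-type samples, with no overlap. Ndnf, a secreted protein that the files list as A930038C07Rik, averaged 129 ± 25.9 against 98.5 ± 2.31 CPM, and Agrn, the basement membrane proteoglycan agrin, 258 ± 32.6 against 206 ± 28.2 CPM. Sema3a, a secreted semaphorin, averaged 3.43 ± 0.94 against 1.91 ± 0.49 CPM. The edgeR adjusted p of each of these 4 genes was 0.737. Lama3, Ndnf and Sema3a were among 4 of the 34 whose mutant libraries all lay above every wild-type library, and 0 of the 34 lay below. Of all genes, 5.23% were higher and 6.43% lower in this way.

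Of 14 tested regulators of alveolar fate, 3 log2 fold changes were above 0 and 11 below it, where 51.1% of all genes were above 0, and 0 were called. The list holds factors of type II cells too, and its member Etv5 is also among the 15 type II markers. At an unadjusted p under 0.05, 0 were higher and 2 lower, against 3.69% and 2.89% of all genes. Their median was -0.15, and -0.10 without mutant 1. Cebpa, a transcription factor of type II cells, gave 386, 466 and 452 CPM for the mutant samples, compared with 720.5, 531 and 549.8 CPM for the wild-type samples, with no overlap. Gata6, a zinc-finger factor of the lung epithelium, averaged 81.3 ± 8.41 against 96.9 ± 7.38 CPM, Tead3, a DNA-binding partner of YAP, 39.5 ± 2.32 against 45.3 ± 3.10 CPM, and the forkhead factor Foxa1 91.8 ± 6.15 against 105.3 ± 9.81 CPM. Each of the 4 had an edgeR adjusted p of at least 0.737. Cebpa and Tead3 were among 3 of the 14 whose mutant libraries all lay below every wild-type library, and 0 of the 14 lay above. Of all genes, 6.43% were lower and 5.23% higher in this way. The 14 transitional genes, the keratin-rich set seen between the type II and type I states, had 8 positive and 6 negative values. Of all genes, 51.1% were positive. The transitional median was 0.10 (0.03 without mutant 1), with 0 called.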

How the data were processed

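The data were RNA-seq counts of 3 mutant and 3 wild-type samples, grouped by the sample titles. Per the labels' protocols, libraries were made with a TruSeq mRNA kit and sequenced together on 1 flow cell. The labels name more than 1 sequencing instrument, so which was used is unclear from them. Per the submitters' processing notes the build was mm9 and the tools included CASAVA and DESeq2. The aligner, counting program, annotation and strand handling are in no source used here. The authors deposited unnormalized integer counts for each gene symbol, with 0 rows lacking a gene name.

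Genes were filtered with filterByExpr by group (12899 kept), scaled by TMM and tested with edgeR 4.0.16 (quasi-likelihood F-test, two-sided, robust off, R 4.3.3) over all genes, with Benjamini-Hochberg adjustment and a threshold of 5%. All 10 members passed the filter. SEs were derived from this test, as the absolute log2 fold change divided by the square root of F. The 95% intervals used these SEs and the t distribution, so both are approximate. Library totals put 3 counts at 0.0977 to 0.133 CPM, a floor for counting error only, since reads carried no molecular identifiers. Pairs of libraries within a group differed by 19.3 to 80.6 chi-square per degree of freedom. Between same-numbered samples, deviations from the group mean had correlations across genes of 0.312, 0.211 and 0.169. All were above 0.1, so the numbers may pair the samples. This rests on the data, not on the labels. The main fit, with its SEs, intervals and p, was unpaired, and the number entered only as a block in alternative fits.

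The members, lists and tests were chosen with earlier results of these data known. All members are named, as are up to 4 genes with the smallest p in the further type I and regulator lists, the first 2 genes of marker lists where needed, and the 3 nearest profiles to Akap5. Xist, Ddx3y, H2-Eb1 and Gpr133 were chosen after their values were seen. Of 142 list genes, 4 were matched through another symbol. Sums over lists are CPM of the library total, and profiles used log2 of CPM with 0.1 added. Alternatives were other scalings and filters, DESeq2 1.42.0, limma-voom (limma 3.58.1), robust dispersion, the sample number as a block, and leaving out libraries. The same edgeR fit was tested on simulated data.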

Additional observations from a re-analysis of the deposited data

How the results depend on the processing

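Over 17 other settings, 0 members were called under any, and of 170 recomputed log2 fold changes of single members 158 kept their direction. Hopx, Pdpn, Aqp5, Akap5, Clic5, Rtkn2 and Emp2 kept theirs under all 17. The 12 that turned belonged to 3 genes, each with an interval around 0, and the cause was not tested. Leaving out each library in turn, Ager ranged from -0.021 (without mutant 3) to 0.128, Gprc5a from -0.125 (without mutant 3) to 0.162 and Igfbp2 from -0.525 (without mutant 1) to 0.897. Gprc5a was also -0.004 with no filter on low counts and -0.005 with the replicate block. Igfbp2 was also -0.555 in limma-voom, -0.587 without mutant 1 and wild type 2 together, and -0.516 in DESeq2 without mutant 1.

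Over all genes, edgeR called 0 and DESeq2 38 (22 without mutant 1). Leaving out each library in turn gave 0 to 1 calls, the single one being Gpr133 without wild type 3. The replicate block gave 0 calls with all samples, a member median of 0.18, and 10 calls over all genes (0 members) without both samples numbered 1. It changed no call of a member. Leaving out each library moved the median log2 fold change of the members between 0.10 (without mutant 3) and 0.32 (without wild type 1), and the number of members whose groups did not overlap between 1 and 5. That number was 3 without mutant 2 (2 higher and 1 lower, against 12.8% and 12.3% of all genes), 5 without mutant 1 (all higher, against 11.2%), and 5 without mutant 1 and wild type 2 together (all higher, against 16.3%). Each 5 included Clic5, for which the same libraries overlapped on the scaling with all 6 libraries. The summed-level ratio of mutant to wild type was 1.06 and ranged from 1.03 to 1.11. The DESeq2 fit without mutant 1, the block without samples numbered 1 and the ratio without each library were added after seeing the data. The interval of Igfbp2 was the widest, with folds from 0.31 to 4.13, and its SE was 0.79 without and 0.36 with the replicate block.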

Other observations

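Ager lies in the MHC region. The class II gene H2-Eb1 of that region was at 375.5, 271 and 618 CPM of the library total in the mutants (numbers 1, 2 and 3), compared with 554, 304 and 507 CPM in the wild types, so mutants 1 and 2 and wild type 2 were lowest. Ager was also lowest in mutant 1 (1816 TMM-normalised CPM) and wild type 2 (1817), while mutant 2, at 2058, was close to wild types 1 (2042) and 3 (2038).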
